A study of Rattus norvegicus with 36 samples.

Results

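The genes examined were 50 listed genes of the cell cycle and of mitosis, measured in the liver of rats given a brominated flame retardant. A gene was taken as measured where at least 1 probe set named it and no other gene, and its brightest such probe set, by the mean of the 36 arrays, gave the value. By this rule 46 of the 50 genes were measured, out of 14217 genes in all, and 67 of 31042 probe sets named them. Cdc6, Ndc80 and Tpx2 had no probe set naming them alone or with others, and Rrm2 was named only on 2 probe sets that also name other genes, so these 4 have no value here. The 46 comprise 4 regulators of the G1/S transition, 11 genes of S phase and 31 genes of mitosis.

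Cells leave quiescence when D-type cyclins and then E-type cyclins drive the phosphorylation of the retinoblastoma protein, which frees E2F transcription factors. E2F targets include the MCM helicase, the sliding clamp Pcna and the enzymes that supply nucleotides, and these are switched on before DNA is copied. Later in the cycle cyclins A and B activate Cdk1, aurora and polo kinases assemble the spindle, and the spindle checkpoint holds back the anaphase-promoting complex until all kinetochores are attached. Most hepatocytes of an adult liver are out of the cycle, and both waves of genes are well known from the regenerating liver. Promoters of S phase genes often carry E2F sites, and those of mitotic genes often carry CCAAT boxes upstream of a cell cycle homology region (CHR), the element bound by the DREAM complex.

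The 36 animals were male Harlan Sprague Dawley rats, 7 weeks old at the start. They received TBBPA-DBPE, the bis(2,3-dibromopropyl ether) of tetrabromobisphenol A, in corn oil by gavage at 5 ml/kg on 5 consecutive days, and the left liver lobe was taken 1 day after the last dose. The 6 groups of 6 animals were vehicle (corn oil alone, a dose of 0) and doses of 943, 94.3, 9.4, 0.94 and 0.1 mg/kg, with 1 array per animal. All 5 doses were compared with the same 6 vehicle animals. In whole liver RNA, fewer cells of a type and less RNA per cell cannot be told apart.

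The promoters of 6 measured genes are shown first, as examples of the elements named above. Whether these elements relate to how the genes varied between livers, described further on, was not tested. Cdk1, Ccnb1 (cyclin B1), Cdc20 and Top2a stand for mitosis, and Mcm3 and Mcm6, subunits of the replicative helicase, for S phase. Each run gives the RefSeq sequence of build GRCr8 from 250 bases before the transcription start to 30 after it, 5′ to 3′ on the strand of the gene. Cdk1 lies on the plus strand at chr20:19265043-19265322, and the others on the minus strand, Ccnb1 at chr2:33655196-33655475, Cdc20 at chr5:137255770-137256049, Top2a at chr10:84473064-84473343, Mcm3 at chr9:30733717-30733996 and Mcm6 at chr13:42404323-42404602. Capitals mark a CHR (TTTGAA or its reverse complement TTCAAA, or TTTAAA, which reads the same on both strands), a box of the letters CCAAT (on the other strand ATTGG) or an E2F match. The E2F letters searched were TTCCCGC or TTCGCGC or TTGCCGC or TTGGCGC, or on the other strand GCGGGAA or GCGCGAA or GCGGCAA or GCGCCAA. Matches can share letters, as E2F matches on opposite strands do in Mcm6, and each was then counted.
Cdk1: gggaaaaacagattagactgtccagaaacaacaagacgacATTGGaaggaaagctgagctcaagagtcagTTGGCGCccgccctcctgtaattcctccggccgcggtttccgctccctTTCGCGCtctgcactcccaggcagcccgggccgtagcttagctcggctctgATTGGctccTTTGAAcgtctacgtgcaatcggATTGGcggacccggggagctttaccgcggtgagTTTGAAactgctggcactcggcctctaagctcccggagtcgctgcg
Ccnb1: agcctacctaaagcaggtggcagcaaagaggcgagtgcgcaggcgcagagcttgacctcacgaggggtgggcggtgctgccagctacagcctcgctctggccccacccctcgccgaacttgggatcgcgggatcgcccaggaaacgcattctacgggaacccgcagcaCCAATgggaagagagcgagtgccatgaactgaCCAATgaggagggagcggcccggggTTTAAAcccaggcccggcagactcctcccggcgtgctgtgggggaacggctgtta
Cdc20: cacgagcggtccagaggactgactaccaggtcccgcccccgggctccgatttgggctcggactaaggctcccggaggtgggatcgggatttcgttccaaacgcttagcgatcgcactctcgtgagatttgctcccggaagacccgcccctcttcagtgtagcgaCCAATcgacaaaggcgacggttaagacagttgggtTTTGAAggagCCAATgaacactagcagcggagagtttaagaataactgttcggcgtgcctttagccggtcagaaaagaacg
Top2a: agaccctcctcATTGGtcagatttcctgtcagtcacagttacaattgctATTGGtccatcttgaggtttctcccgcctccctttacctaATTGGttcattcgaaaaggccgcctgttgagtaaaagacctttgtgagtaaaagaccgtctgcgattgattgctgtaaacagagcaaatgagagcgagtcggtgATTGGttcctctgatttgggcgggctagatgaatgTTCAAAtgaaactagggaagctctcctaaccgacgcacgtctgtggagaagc
Mcm3: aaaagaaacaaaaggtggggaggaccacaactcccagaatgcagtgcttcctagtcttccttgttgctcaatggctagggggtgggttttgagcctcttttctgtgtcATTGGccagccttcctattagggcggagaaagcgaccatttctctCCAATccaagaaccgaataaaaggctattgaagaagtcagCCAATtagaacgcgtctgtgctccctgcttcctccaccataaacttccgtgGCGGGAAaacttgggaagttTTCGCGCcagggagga
Mcm6: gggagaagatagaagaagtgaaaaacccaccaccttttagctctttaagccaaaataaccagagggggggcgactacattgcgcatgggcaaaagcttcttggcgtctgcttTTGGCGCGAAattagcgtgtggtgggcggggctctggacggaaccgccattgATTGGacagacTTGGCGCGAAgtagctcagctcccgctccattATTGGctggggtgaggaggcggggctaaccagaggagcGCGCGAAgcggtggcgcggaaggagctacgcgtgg

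The mitotic promoters shown each hold a CHR and at least 2 CCAAT boxes. In Ccnb1 the TTTAAA begins 25 bases before the start, and in Top2a the TTCAAA 22 bases before it. The Mcm3 and Mcm6 windows hold no CHR, and their E2F matches include GCGGGAA from base -6 to 1 in Mcm3 and GCGCGAA from base -5 to 2 in Mcm6. Cdk1 holds both kinds, with 2 CHR and 2 E2F matches.

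Over windows of 300 bases (250 before to 50 after the start), 36 of the 46 measured genes had a sequence, and for the 2 with several windows the first was used. Ccnd1, Ccne2, E2f1, Mcm4, Ccna2, Aurkb, Pbk, Foxm1, Ube2c and Racgap1 had none. A CHR was present in 23 of 25 mitotic windows (92.0%) and in 1 of 10 S phase windows, against 28.25% of 33469 rat promoter windows. The mitotic windows lacking one were those of Cdca3 and Stmn1, and the S phase window holding one was that of Mcm2. An E2F match was present in 8 of 10 S phase windows (80.0%) and in 4 of 25 mitotic windows (16.0%), against 9.519% of all windows. The mitotic windows with an E2F match were those of Cdk1, Ccnb2, Mki67 and Stmn1. CCAAT boxes did not separate the waves in this way, with 19 of 25 mitotic (76.0%) and 7 of 10 S phase windows (70.0%) against 37.49% of all. A CHR together with a CCAAT box stood in 17 of 25 mitotic windows (68.0%), in 0 of 10 S phase windows and in 11.31% of all windows. The CHR match nearest the start began at a median of base -22 in the 23 mitotic windows and at base -108 in the 9455 rat windows with one. A match of letters is a description, not evidence of a bound site.

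Each array gave log2 expression values on which any 2 arrays correlated between 0.989 and 0.997, and array medians lay between 4.59 and 4.66. Array weights from limma, low where an array departs more from its group, were lowest for vehicle replicate 1 (0.47). Next came replicate 4 at 9.4 mg/kg (0.58) and vehicle replicate 5 (0.76). These arrays are among those named below as extremes, and whether the animal or the array departs was not tested. Of the 46 genes, 22 had a mean below the lowest array median (3 of G1/S, 2 of S phase and 17 of mitosis), where array signal can be close to background. These dim genes were Ccne1, Ccne2, E2f1, Gmnn, Tyms, Ccna2, Ccnb1, Aurka, Aurkb, Pbk, Foxm1, Ttk, Bub1, Bub1b, Cenpf, Cdca8, Kif11, Kif2c, Racgap1, Hmmr, Mki67 and Top2a. Neither background nor any understatement of differences was measured. All 7 measured hepatocyte markers lay above the lowest array median, with list means of 12.48 to 12.77 in the 36 livers. Across all 31042 probe sets no dose passed the threshold of adjusted p under 0.05 in limma. The limma p-values compare a difference or slope with the spread between these animals. Levels of different probe sets are not comparable, so levels are compared between animals, for 1 gene or for the mean or sum of a fixed list. Setting a gene's mean beside the array medians serves only to mark dim probe sets.

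The regulators of G1/S were Ccnd1 (cyclin D1), Ccne1 and Ccne2 (the E-type cyclins) and E2f1. Ccnd1 had its lowest, median and highest animal at 9.11, 9.50 and 9.81 on the log2 scale in vehicle, at 9.11, 9.77 and 10.02 at 94.3 mg/kg and at 8.74, 9.28 and 9.74 at 943 mg/kg. The 3 ranges overlap, with 3 animals at 94.3 mg/kg above all vehicle animals and 1 animal at 943 mg/kg below them. The difference between 943 and 94.3 mg/kg was -0.36 ± 0.15 (SE, n = 6 per group), with an unadjusted p of 0.026 and an adjusted p of 0.826 in limma. Against vehicle, the Ccnd1 difference was 0.20 ± 0.15 at 94.3 mg/kg and -0.16 ± 0.15 at 943 mg/kg, and neither passed. Without replicate 2 at 943 mg/kg, the animal at 8.74, the latter was -0.04. Its other probe sets followed it between animals, with r of 0.89 and 0.83 after group means were removed. Ccne1 had the smallest p of all members at 94.3 mg/kg, 0.16 ± 0.077 above vehicle (adjusted p = 0.718, limma), with 3 of 6 animals above the vehicle range, at a level below the array medians. Ccne2, at -0.16 ± 0.10 at 0.1 mg/kg, and E2f1, at 0.16 ± 0.088 at 9.4 mg/kg, were also dim.

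None of the genes of S phase passed at any dose. Pcna, the sliding clamp of the DNA polymerases, had its lowest, median and highest animal at 8.48, 8.60 and 8.70 in vehicle, 8.67, 8.72 and 8.80 at 9.4 mg/kg and 8.50, 8.61 and 8.79 at 943 mg/kg. At 9.4 mg/kg, 5 of 6 animals lay above the highest vehicle animal, and the difference was 0.13 ± 0.060 (SE, n = 6 per group; unadjusted p = 0.037, adjusted p = 0.980, limma). Over all 36 livers the highest Pcna value was 1.33-fold the lowest. The helicase subunit Mcm7 covered 1.54-fold and Mcm6, the widest of the S phase genes by SD within groups, 2.12-fold. Mcm6 had its lowest, median and highest animal at 4.52, 4.79 and 5.05 in vehicle and 4.45, 4.91 and 5.38 at 9.4 mg/kg, and the vehicle range lay inside the other. Mcm5 had the smallest p among S phase genes at 0.94 mg/kg, -0.17 ± 0.084 against vehicle (adjusted p = 0.999, limma), with 3 of 6 animals below the vehicle range. Mcm3 was at 0.17 ± 0.095 at 0.1 mg/kg, Gmnn (geminin, which blocks relicensing of origins) at -0.12 ± 0.10 at 0.94 mg/kg, and Mcm4 at -0.16 ± 0.11 between 943 and 94.3 mg/kg (-0.08 without replicate 6 at 94.3 mg/kg). Among the nucleotide enzymes Rrm1, the large subunit of ribonucleotide reductase, was at -0.10 ± 0.074 at 94.3 mg/kg, Tk1, thymidine kinase, at -0.07 ± 0.077 at 0.1 mg/kg and Tyms, thymidylate synthase, at -0.05 ± 0.10 at 9.4 mg/kg. Each is given at a dose where it had one of the smallest p-values (limma) among lower members. Rrm1 had a group mean below vehicle at each dose. Tyms had a group mean of 4.47 at 943 mg/kg against 4.35 in vehicle. For Tk1 it was 6.34 at 94.3 mg/kg against 6.32.

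Among the mitotic cyclins, kinases and their regulators the ranges of dosed and vehicle animals overlapped for each gene described here. Cdk1, the kinase that drives entry into mitosis, had its lowest, median and highest animal at 4.82, 5.20 and 6.13 in vehicle, 4.85, 5.59 and 5.79 at 0.1 mg/kg, 4.70, 5.32 and 5.62 at 0.94 mg/kg, 4.84, 5.47 and 6.39 at 9.4 mg/kg, 5.09, 5.32 and 5.62 at 94.3 mg/kg and 5.08, 5.63 and 5.86 at 943 mg/kg. All 5 dose ranges overlap the vehicle range, and only 9.4 mg/kg holds an animal above it. The largest Cdk1 difference, at 943 mg/kg, was 0.25 ± 0.21 (SE, n = 6 per group; 95% interval -0.18 to 0.68; adjusted p = 0.901, limma). Cdkn3, a phosphatase acting on Cdk1 and Cdk2, varied most, with its lowest, median and highest animal at 3.87, 5.73 and 6.90 in vehicle and 5.16, 5.90 and 6.62 at 943 mg/kg. Both extremes of Cdkn3 over the 36 livers were vehicle animals, 8.16-fold apart. Its difference of 0.47 ± 0.37 at 9.4 mg/kg was the largest of any member against vehicle and did not pass (adjusted p = 0.980, limma). Ccnb1, which partners Cdk1, had its lowest, median and highest animal at 3.93, 4.30 and 5.29 in vehicle and 3.88, 4.48 and 4.91 at 943 mg/kg, with a difference of 0.04 ± 0.21.

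Aurkb, aurora kinase B of the chromosomal passenger complex, had the smallest p of any member at 9.4 mg/kg. Its lowest, median and highest animal were at 2.69, 3.14 and 3.52 in vehicle and 3.07, 3.40 and 4.48 at 9.4 mg/kg, with 2 animals above the vehicle range. The difference was 0.38 ± 0.16 (unadjusted p = 0.025, adjusted p = 0.980, limma), at a dim probe set, and 0.19 without replicate 4 at 9.4 mg/kg, the animal at 4.48. Pbk, a mitotic kinase, had 4 of 6 animals above the vehicle range at 0.1 mg/kg, and 3 at each of 0.94 and 943 mg/kg with another level with the highest vehicle animal (3.77), with differences of 0.28 ± 0.12, 0.19 ± 0.12 and 0.20 ± 0.12 and adjusted p of 0.869, 0.999 and 0.868. These comparisons share the vehicle animals, which lay between 3.23 and 3.77. At 9.4 mg/kg Pbk ran from 3.56 to 4.21, with an unadjusted p under 0.05 (limma), and did not pass after adjustment. Foxm1, a transcription factor of the mitotic wave, went the other way at 0.1 mg/kg, -0.14 ± 0.072 (adjusted p = 0.897, limma), with 4 of 6 animals below the vehicle range. Its other probe set followed it weakly between animals (r = 0.19 after group means were removed). The same r was -0.01 for Gmnn, 0.17 for Kif2c, 0.29 for Ttk and 0.31 for Racgap1, but 0.77 for Ccnb1. Plk1, polo-like kinase, had a slope of 0.024 ± 0.014 per dose rank (adjusted p = 0.877).

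None of the genes of the checkpoint, the kinetochore and anaphase passed. Cdca3, a trigger of mitotic entry, had its lowest, median and highest animal at 5.07, 5.68 and 6.62 in vehicle, 5.60, 5.97 and 6.53 at 94.3 mg/kg and 5.39, 5.85 and 6.13 at 943 mg/kg, and both dose ranges lay inside the vehicle range. Birc5 (survivin), a passenger protein, was at 4.59, 4.89 and 5.37 in vehicle and 4.88, 5.17 and 5.56 at 9.4 mg/kg. Its difference was 0.25 ± 0.11 at 9.4 mg/kg and 0.24 ± 0.11 at 0.1 mg/kg, with 1 animal above the vehicle range each time and adjusted p of 0.980 and 0.883. Cdca8 (borealin) differed between 943 and 94.3 mg/kg by 0.20 ± 0.096, with 3 of 6 animals above the range at 94.3 mg/kg (adjusted p = 0.869, limma). Nuf2, of the outer kinetochore, and Ttk, the checkpoint kinase, had differences of 0.18 ± 0.11 and 0.19 ± 0.11 at 0.94 mg/kg, both with an adjusted p of 0.999. Nuf2 ran from 4.90 to 5.51 in vehicle and from 5.05 to 5.71 at 9.4 mg/kg. There its unadjusted p was under 0.05 (limma), and it did not pass after adjustment. Ube2c, the ubiquitin-conjugating enzyme of the anaphase-promoting complex, differed by 0.23 ± 0.15 at 94.3 mg/kg (adjusted p = 0.816). Mad2l1, which inhibits Cdc20, was at -0.12 ± 0.10 at 0.94 mg/kg (adjusted p = 0.999). Cdc20, which activates the anaphase-promoting complex, had a slope of 0.047 ± 0.028 per dose rank (adjusted p = 0.877).

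Of the spindle, cytokinesis and chromosome genes, Mki67, whose product Ki-67 is the usual stain for cycling cells, was at 2.92, 3.36 and 3.95 in its lowest, median and highest vehicle animal, at 3.52, 3.68 and 4.01 at 9.4 mg/kg and at 2.89, 3.43 and 3.75 at 943 mg/kg. At 9.4 mg/kg 1 animal lay above the vehicle range and the difference was 0.37 ± 0.16 (unadjusted p = 0.031, adjusted p = 0.980, limma). At 943 mg/kg it was 0.07 ± 0.16 with a 95% interval of -0.26 to 0.40. Mki67 was dim throughout. Top2a, the topoisomerase that untangles sister chromatids, was at 4.18, 4.40 and 5.02 in vehicle and 3.95, 4.66 and 4.83 at 943 mg/kg, a difference of 0.07 ± 0.14. Racgap1, of the centralspindlin complex, had the smallest p at 943 mg/kg, with its lowest, median and highest animal at 3.29, 4.01 and 4.17 in vehicle and 3.73, 4.27 and 4.86 at that dose. There 3 animals lay above the vehicle range, and the difference was 0.35 ± 0.16 (adjusted p = 0.865, limma), or 0.23 without vehicle replicate 1, the animal at 3.29. Kif20a, a kinesin of cytokinesis, was at 4.49, 4.76 and 5.52 in vehicle and 4.38, 5.24 and 5.36 at 943 mg/kg. Stmn1, which destabilises microtubules, was at 7.72, 7.96 and 8.37 in vehicle and 7.72, 8.02 and 8.17 at 943 mg/kg, and the ranges overlap. Prc1, which bundles the central spindle, had the smallest p of the members for the trend over dose rank, a slope of 0.037 ± 0.021 per rank (adjusted p = 0.875, limma), and a difference of 0.25 ± 0.13 at 94.3 mg/kg (0.15 when vehicle replicate 1 was left out and 0.35 when replicate 5 was). The motor Kif11 was at -0.08 ± 0.12 there and at -0.09 ± 0.12 at 943 mg/kg, and its only other probe set did not follow it between animals (r = -0.11). Kif2c, a microtubule depolymerase, differed by 0.17 ± 0.14 between 943 and 94.3 mg/kg, and by 0.08 to 0.26 with 1 animal left out, the lowest without replicate 5 at 94.3 mg/kg. The mitotic genes not described singly were Ccna2, Ccnb2, Aurka, Bub1, Bub1b, Cenpf, Nusap1 and Hmmr, and over all 31 mitotic genes the differences from vehicle ran from -0.22 (Kif20a at 0.94 mg/kg) to 0.47.

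**Figure D1:**
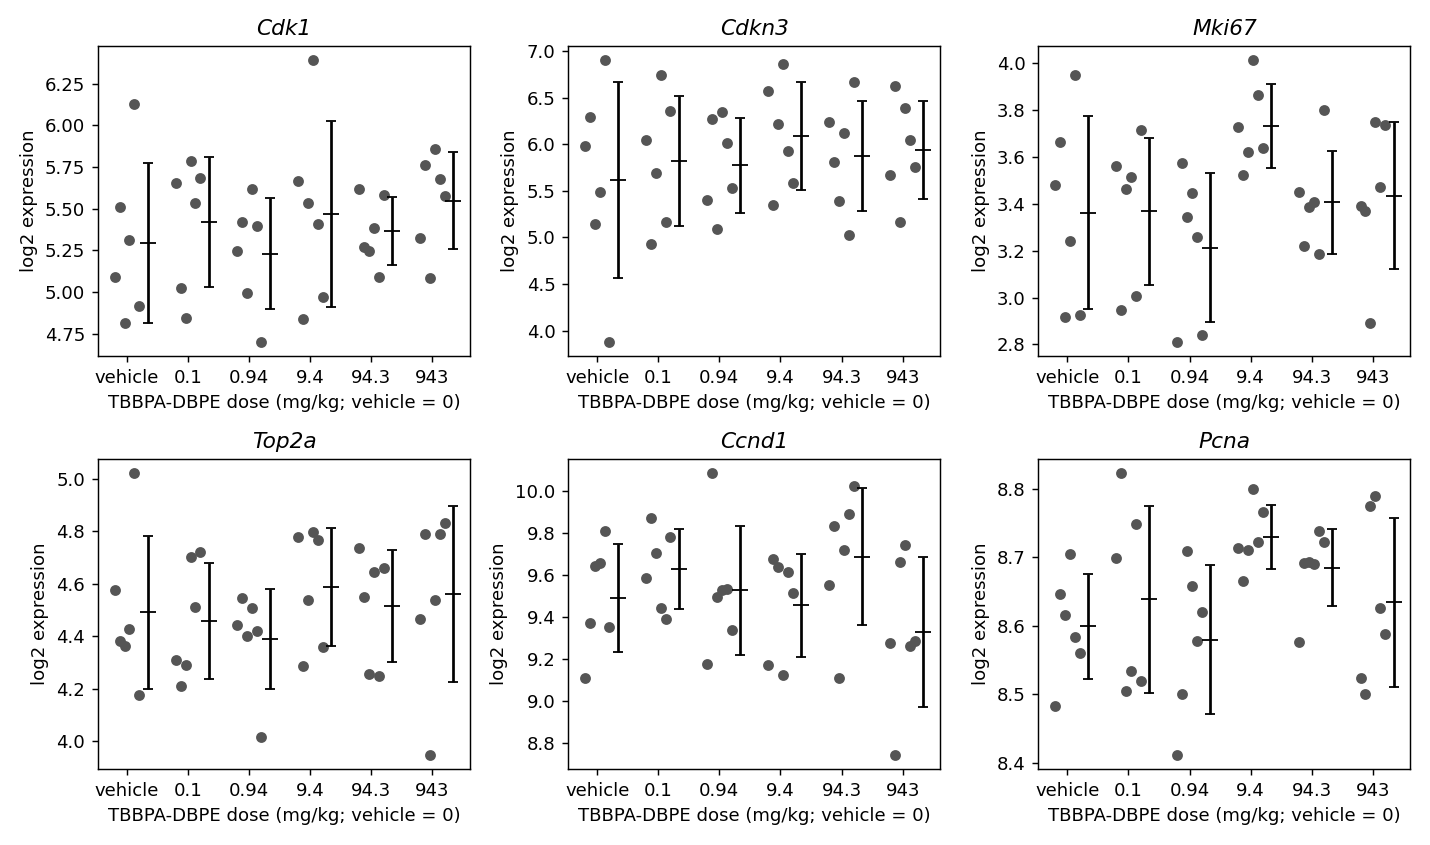
Log2 expression (vertical axis) of 6 genes in the 36 livers, by dose in mg/kg (horizontal axis, vehicle = 0); points are animals, and the bar beside each group is its mean ± SD (n = 6). The groups overlap for each gene, and the scales differ: the 36 values of Cdkn3 span 3.87 to 6.90 and those of Pcna 8.41 to 8.82.

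In limma, 0 of 46 members passed at an adjusted p under 0.05 at any dose, between 943 and 94.3 mg/kg, over the 5 doses in 1 F test, or as a trend over dose rank, and 0.00% of all probe sets did in each of these 8 comparisons. An unmoderated linear model also passed 0. Without replicate 1 at 94.3 mg/kg, 11 probe sets passed at that dose and 18 between 943 and 94.3 mg/kg, and 0 members did. At an unadjusted p under 0.05, 2 of 46 were higher at 0.1 mg/kg against 3.00% of all probe sets, 0 at 0.94 mg/kg against 2.10%, 6 at 9.4 mg/kg against 2.21%, 1 at 94.3 mg/kg against 3.68% and 1 at 943 mg/kg against 3.07%. The 6 at 9.4 mg/kg were Aurkb, Birc5, Mki67, Nuf2, Pcna and Pbk. For each of these genes replicate 4 was the highest animal of that dose, so they are not 6 separate observations. Without it the difference was 0.19 for Aurkb and 0.17 for Birc5, and that of Mki67 was at least 0.28 whichever animal was left out. No member was lower at that level at any dose, where 2.62%, 2.06%, 2.64%, 3.22% and 2.67% of all probe sets were. Between 943 and 94.3 mg/kg 1 member was higher, Cdca8, against 2.45%, and 1 lower, Ccnd1, against 3.24%. The F test gave 0 members against 5.35%, with the smallest p for Mki67, Mcm5 and Aurkb, and the trend 0 against 5.68%. No member had all 6 animals of a dose above the highest vehicle animal, where 0.113%, 0.103%, 0.0934%, 0.161% and 0.164% of all probe sets did from the lowest dose to the highest. None had all 6 below the lowest vehicle animal either, where 0.122%, 0.103%, 0.0902%, 0.135% and 0.0966% of all probe sets did, nor outside the range at 94.3 mg/kg in the comparison with 943 mg/kg (0.0870% above and 0.200% below).

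The sign of the differences was counted for each wave apart. From 0.1 to 943 mg/kg the median difference over the 31 mitotic genes was 0.10, -0.01, 0.18, 0.07 and 0.10, with 28, 12, 28, 26 and 28 of them above vehicle. Over the 11 S phase genes it was 0.0018, -0.02, 0.07, 0.07 and -0.02, with 6, 3, 8, 10 and 5 above. The medians over all probe sets were -0.00028, -0.0018, -0.0060, 0.0034 and -0.00078. Mitotic genes move together between animals, so these counts are not 31 separate observations, and all 5 doses share vehicle animals that were the lowest of all 36 for many of them: vehicle replicate 6 for 9 of 31, replicate 1 for 6 and replicate 3 for 4. The mitotic medians moved with single animals. With 1 animal left out, the median ran from 0.02 to 0.18 at 0.1 mg/kg, -0.08 to 0.07 at 0.94 mg/kg, 0.06 to 0.29 at 9.4 mg/kg, 0.0036 to 0.17 at 94.3 mg/kg and 0.04 to 0.20 at 943 mg/kg. The lowest values at 0.1, 94.3 and 943 mg/kg came without vehicle replicate 6, that at 0.94 mg/kg without vehicle replicate 1, and that at 9.4 mg/kg without its replicate 4, the highest animal of all for 18 of 31 mitotic genes. The highest value came without vehicle replicate 5 at each dose. The number of mitotic genes above vehicle then ran from 20 to 30 at 0.1 mg/kg, 6 to 23 at 0.94 mg/kg, 23 to 30 at 9.4 mg/kg, 16 to 28 at 94.3 mg/kg and 20 to 30 at 943 mg/kg. Between 943 and 94.3 mg/kg, which share no vehicle animal, the mitotic median was 0.03 and the S phase median -0.05.

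**Figure D2:**
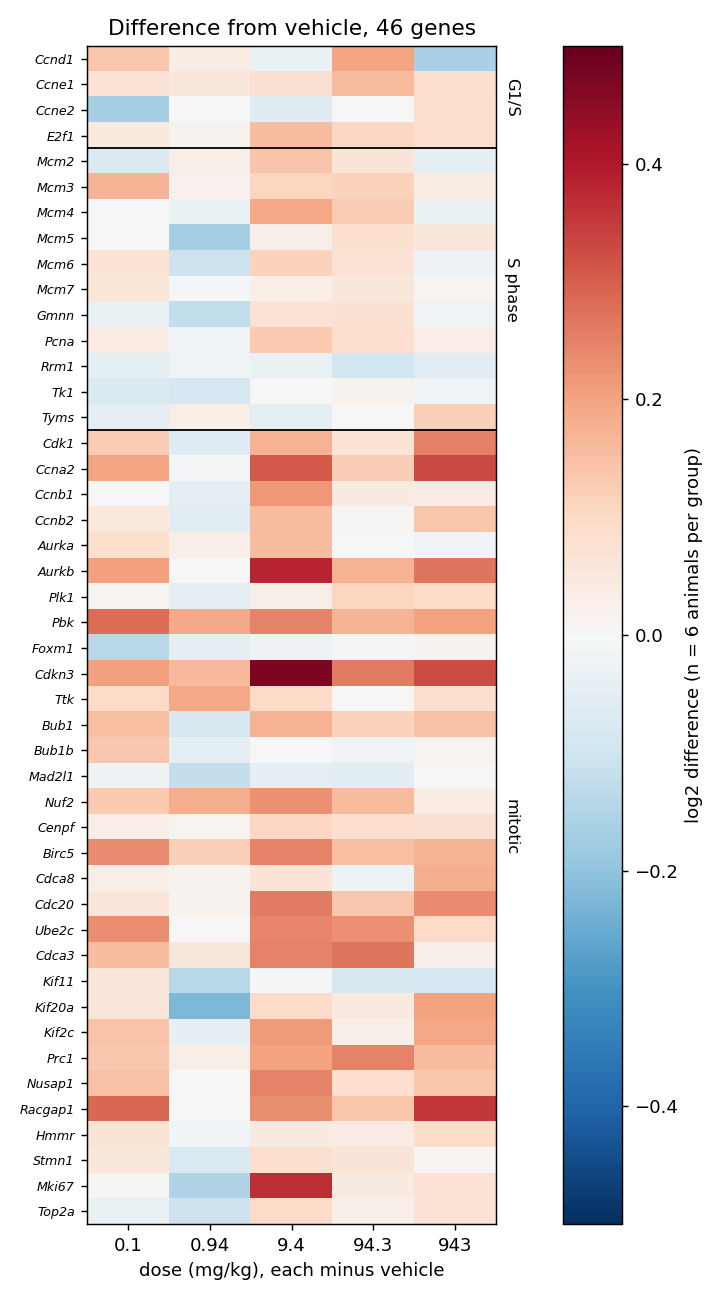
Difference from vehicle on the log2 scale (colour, red above and blue below vehicle; n = 6 animals per group) for the 46 genes (rows, grouped as G1/S, S phase and mitotic) at the 5 doses in mg/kg (columns). The widest difference is 0.47, for Cdkn3 at 9.4 mg/kg, and the cells of 1 dose column share the vehicle animals with all others; none passed the threshold.

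Animals of the same group varied widely in the mitotic genes. The SD within groups had a median of 0.251 over the 31 mitotic genes, 0.170 over the 11 S phase genes, 0.170 over the 4 G1/S genes and 0.145 over all probe sets. It exceeded the 90th percentile of all probe sets for 20 of 31 mitotic genes, 1 of 11 S phase genes (Mcm6) and 1 of 4 G1/S genes (Ccnd1), while 3105 of 31042 probe sets lie above it. Cdkn3, at 0.68, Ccna2 (cyclin A2), at 0.49, and Ccnb2 (cyclin B2), at 0.48, had the widest SD, and Cdk1 was at 0.39. Foxm1 at 0.12 had the narrowest of the mitotic genes. The mean of the 31 mitotic genes per animal ran from 4.24 to 5.02 in vehicle, 4.39 to 4.92 at 0.1 mg/kg, 4.39 to 4.74 at 0.94 mg/kg, 4.46 to 5.21 at 9.4 mg/kg, 4.38 to 4.89 at 94.3 mg/kg and 4.38 to 4.84 at 943 mg/kg. The vehicle group alone thus held nearly the full span, from replicate 6 at 4.24 to replicate 5 at 5.02, and replicate 4 at 9.4 mg/kg was highest at 5.21.

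**Figure D3:**
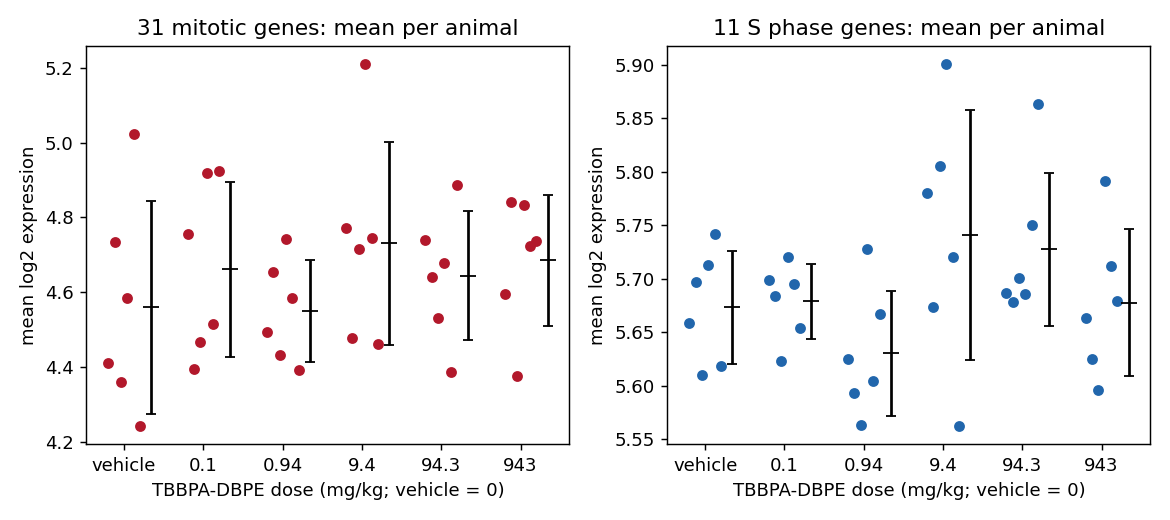
Mean log2 expression (vertical axis) of the 31 mitotic genes (left) and the 11 S phase genes (right) in each animal, by dose in mg/kg (horizontal axis, vehicle = 0), with the mean ± SD of each group of 6. The mitotic mean spans 4.24 to 5.21 and the S phase mean 5.56 to 5.90 over the 36 livers, and the vertical scales differ.

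Mitotic genes varied together from liver to liver. With group means removed, so that no difference between doses contributes, the median Pearson r over the 465 pairs of mitotic genes was 0.56, and 61.5% of pairs exceeded 0.5, compared with 0.965% of all gene pairs, whose median was 0.0018. Over the 55 pairs of S phase genes the median was 0.11 with 1.82% above 0.5, and between mitotic and S phase genes it was 0.20. The S phase genes also varied less within groups (median SD 0.170 against 0.251 for mitotic genes). Whether their smaller spread lowers r was not tested. The subunits Mcm2 to Mcm7, which form 1 complex, had a median r of 0.11 over 15 pairs. Ccnd1 had a median r of -0.03 with the mitotic genes. Among the S phase genes Tk1 was closest to them, with a median r of 0.54, and Pcna farthest, at -0.06. These correlations are descriptions over 36 animals that share arrays and normalization within an animal. The mitotic median was 0.67 over members brighter than the lowest array median, and 0.45 without vehicle replicate 5 and replicate 4 at 9.4 mg/kg, an alternative chosen after seeing the data, in which the S phase median was 0.07.

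**Figure D4:**
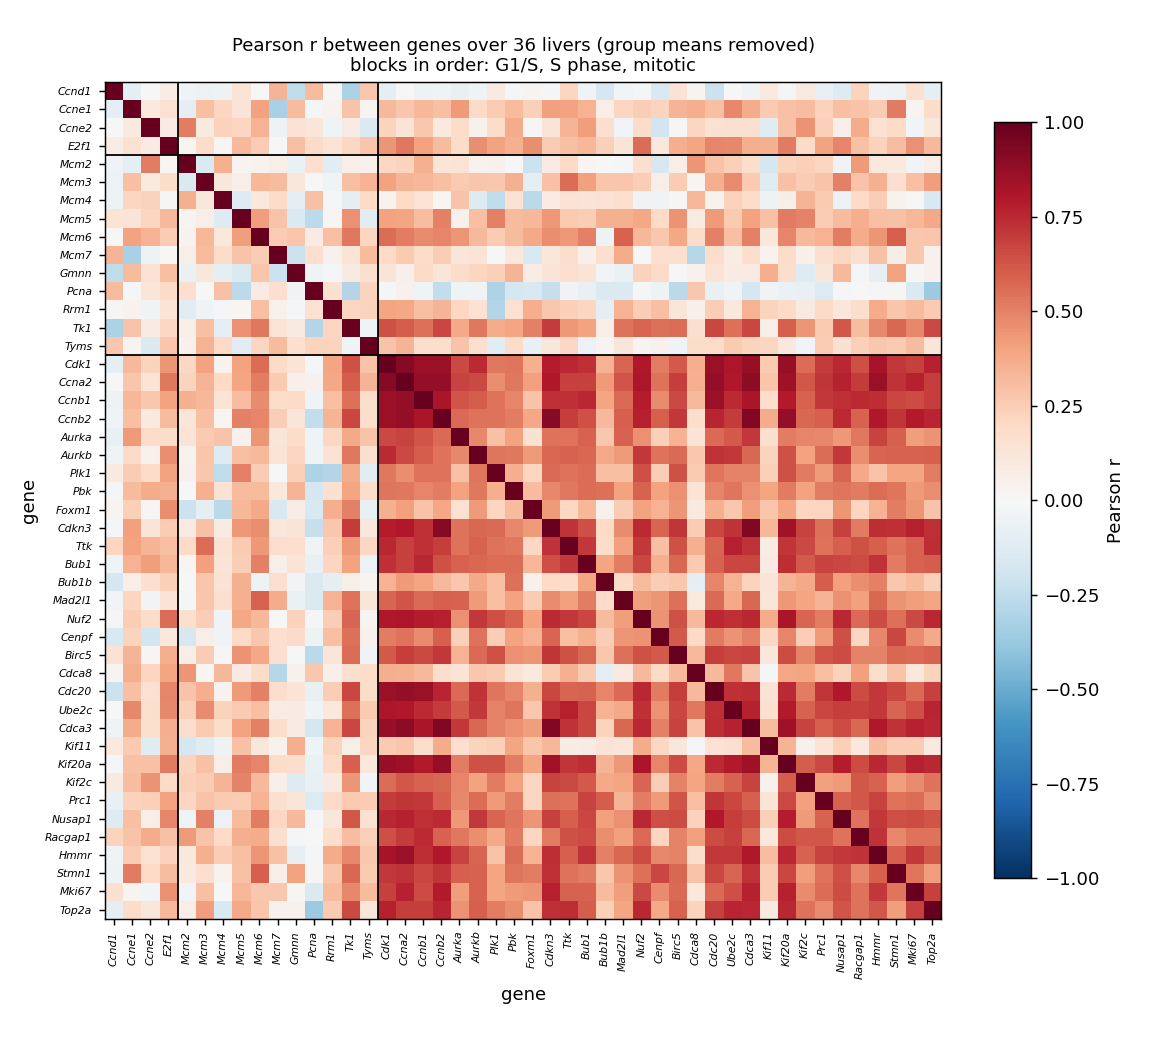
Pearson r (colour, -1 to 1) between each pair of the 46 genes over 36 livers after group means were removed, in the order G1/S, S phase and mitotic (black lines divide the blocks). The mitotic block is red nearly throughout (median r 0.56), the S phase block is mostly pale (median r 0.11), and Kif11, Bub1b and Cdca8 stand out as pale lines in the mitotic block.

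Of 3 pairs of single genes tested, Cdk1 and Top2a had r of 0.77 and rho of 0.74 over 36 animals (permutation p = 1e-05 for each, the smallest that the permutations can give, adjusted 3e-05 over the 3 pairs). Leaving out the 2 animals farthest from the Cdk1 median, vehicle replicate 5 and replicate 4 at 9.4 mg/kg, left r at 0.74. Cdk1 and Mcm3 had r of 0.40 and rho of 0.38 (permutation p = 0.03 for each, adjusted 0.046 and 0.045), but r was 0.23 without the same 2 animals. Leaving them out also narrows the range of Cdk1, so the lower r cannot show how far the relation depends on them. Mcm3 and Mcm6 had r of 0.33 and rho of 0.28 (permutation p = 0.076 and 0.13, adjusted 0.076 and 0.13), and r was 0.33 without the 2 animals farthest from the Mcm3 median. The 3 pairs were chosen with earlier results of these data known, and Cdk1 and Top2a belong to the mitotic genes described above. The p-values are therefore no independent support for the joint variation of those genes.

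**Figure D5:**
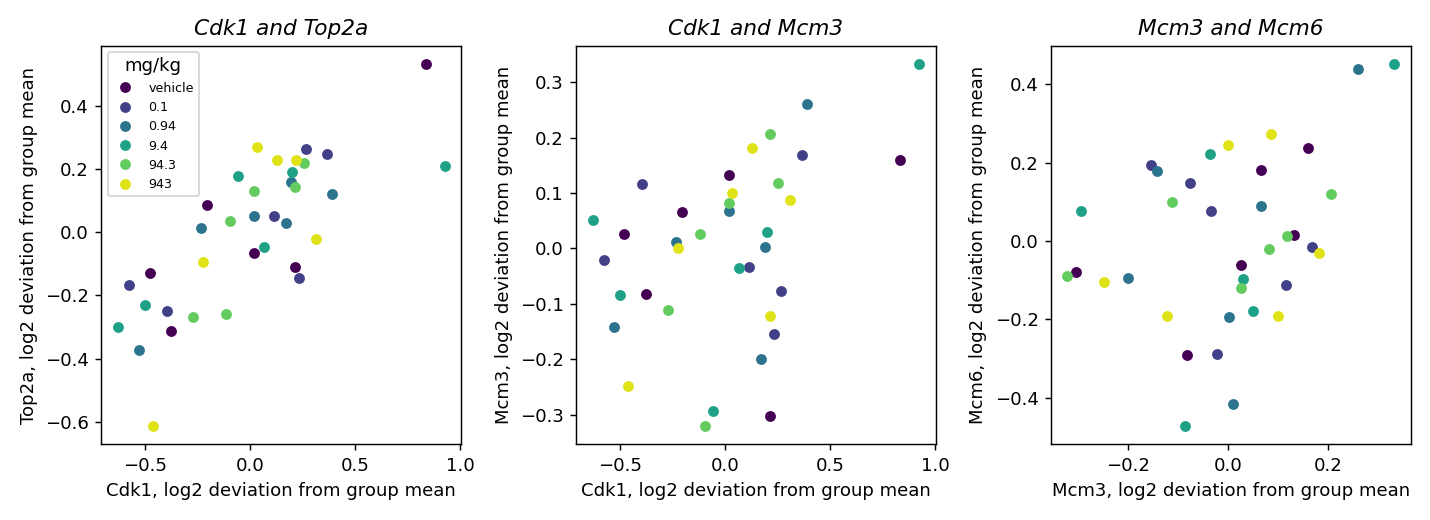
Deviation from the group mean on the log2 scale of Cdk1 against Top2a, Cdk1 against Mcm3, and Mcm3 against Mcm6, 1 point per animal, coloured by dose in mg/kg (36 animals). The first pair lines up (r = 0.77), while in the second r was 0.40 with the 2 animals at the right and 0.23 without them.

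Among 14171 genes outside the members, those whose deviations from group means were most like the mean of the mitotic genes over the 36 animals were Ect2 (r = 0.94), which activates RhoA for cytokinesis, Pttg1 (securin, r = 0.90), Spc24 (r = 0.90) and Spc25 (r = 0.78) of the Ndc80 kinetochore complex, Pclaf (r = 0.86), which binds Pcna, Knstrn (r = 0.81) and Ska1 (r = 0.78) of the spindle, and Tcf19 (r = 0.79). Of the 30 genes most like it, 13 stood in the lists of other cell cycle genes. Ect2 ranged from 3.41 to 5.42 and Pttg1 from 5.29 to 6.57 over the 36 livers. These values describe likeness between animals and carry no test.

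The other genes of the pathway, in 4 lists, gave 0 genes past the adjusted threshold in all 8 comparisons in limma. At an unadjusted p under 0.05, the 20 measured CDK inhibitors and early cyclins held 0 genes at 0.1, 0.94 and 9.4 mg/kg, 1 higher at 94.3 mg/kg and 1 higher and 1 lower at 943 mg/kg. The 17 RB, E2F and DREAM subunits held 1 lower at 0.1 mg/kg, 1 lower at 0.94 mg/kg, 0 at 9.4 mg/kg, 1 higher and 3 lower at 94.3 mg/kg and 0 at 943 mg/kg. The 40 other replication genes held 1 higher at 0.1 mg/kg, 1 lower at 0.94 mg/kg, and 3, 4 and 3 higher at the 3 doses above. The 46 other mitotic genes held 0 at 0.1 mg/kg, 1 higher and 1 lower at 0.94 mg/kg, and 0, 1 and 1 higher above. Over all probe sets, from 0.1 to 943 mg/kg, 3.00%, 2.10%, 2.21%, 3.68% and 3.07% were higher and 2.62%, 2.06%, 2.64%, 3.22% and 2.67% lower at that level. Hdac1, a histone deacetylase recruited by RB proteins, was the gene lower at 0.1 mg/kg, at -0.26 ± 0.086 (unadjusted p = 0.0051, adjusted p = 0.823, limma). Chek1, the replication checkpoint kinase, had the smallest F test p of the 4 lists (0.0099, adjusted p = 0.886), with its lowest, median and highest animal at 4.71, 5.05 and 5.48 in vehicle and 5.21, 5.40 and 5.81 at 9.4 mg/kg. The groups overlap, and the difference was 0.34 ± 0.12. Cdk4, the partner of cyclin D1, was at 7.92, 8.30 and 8.38 in vehicle and 8.36, 8.45 and 8.57 at 94.3 mg/kg, overlapping ranges and a difference of 0.21 ± 0.065 (unadjusted p = 0.0030, adjusted p = 0.469, limma). Cdkn1a (p21), the CDK inhibitor induced by p53, differed by 0.05 ± 0.17 at 94.3 mg/kg and by -0.16 ± 0.17 at 943 mg/kg. Cenpm, of the inner kinetochore, differed by 0.17 ± 0.073 at 943 mg/kg (unadjusted p = 0.023), and Gins1, of the replicative helicase, by 0.21 ± 0.092 (unadjusted p = 0.030). In the other lists E2f5, Lin54 and Hdac1, Uhrf1, Ccng1 and Ccng2, and Cenpe and Fzr1 completed the genes with the smallest F test p, and none passed.

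Markers of other cells of the liver were set beside these values. At 9.4 mg/kg, where the mitotic median was 0.18, all 7 measured Kupffer cell and macrophage markers, 8 of 10 lymphocyte markers and 3 of 3 neutrophil markers were above vehicle, with medians of 0.19, 0.16 and 0.42, and 0 passed. The neutrophil list mean was 5.75 in replicate 1 at 9.4 mg/kg and 4.28 to 4.51 in the other 5, and its median difference was 0.12 without that animal. The Kupffer cell median was 0.08 without vehicle replicate 1. The summed log2 level of the Kupffer cell list ran from 52.9 to 58.5 in vehicle and from 56.0 to 58.3 at 9.4 mg/kg, that of lymphocytes from 42.0 to 46.8 and from 44.7 to 47.9, and that of neutrophils from 11.5 to 13.4 and from 12.8 to 17.3. At 0.1 mg/kg, where 28 of 31 mitotic genes were also above vehicle, 0 of 7 Kupffer cell, 4 of 10 lymphocyte and 1 of 3 neutrophil markers were, and at 943 mg/kg 1 of 7, 5 of 10 and 2 of 3. The Kupffer cell, lymphocyte and neutrophil list means were 7.98, 4.44 and 4.25 in vehicle. At 94.3 mg/kg they were 8.05, 4.49 and 4.41, and at 0.94 mg/kg 7.84, 4.36 and 4.31. With 1 animal left out, the 3 median differences at 94.3 mg/kg ran from -0.02 to 0.18, -0.06 to 0.06 and -0.06 to 0.26. The 2 animals with the highest mitotic means, replicate 4 at 9.4 mg/kg and vehicle replicate 5, had Kupffer cell means of 8.19 and 7.61 within a range of 7.38 to 8.35 over all animals. Their lymphocyte means were 4.79, the highest of the 36, and 4.20, within a range of 4.15 to 4.79. Their neutrophil means were 4.51 and 4.25 (range 3.83 to 5.75), and their stellate cell and fibroblast means 6.86 and 7.46 (range 6.75 to 7.51). Of the markers, 6 of 10 for lymphocytes, 2 of 3 for neutrophils, 5 of 8 for erythroid precursors, 2 of 5 for cholangiocytes and none of the others lay below the lowest array median. At 9.4 mg/kg 5 of 8 erythroid, 5 of 7 hepatocyte, 4 of 6 endothelial, 6 of 8 stellate cell and fibroblast and 2 of 5 cholangiocyte markers were above vehicle. The part of other cell types in the mitotic values was not tested.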

How the data were processed

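Total RNA from the left liver lobe of 36 rats was hybridised to 1 single-colour 3' expression array per animal. Per the submitters' processing notes, the authors made the deposited log2 values per probe set with RMA (affy), whose version is not given in the sources used here. RMA equalises the distributions of the arrays, so a shift shared by all genes cannot be seen, and it can compress differences of dim probe sets. Array depth has no count equivalent, and precision is set by how many animals there are: the median SE of a dose difference was 0.083.

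After 57 control probe sets were left out, limma 3.58.1 in R 4.3.3 (lmFit, contrasts.fit, eBayes) fitted 31042 probe sets with 1 mean per group over all 36 arrays. Two-sided p-values received a Benjamini-Hochberg adjustment over all probe sets of a comparison, and 0.05 was the threshold. The fit and the permutation test (100000 permutations within groups) were checked on simulated data. Gene names come from the platform annotation (20826 probe sets with 1 gene, 436 with several, 9780 with none). The study's own test, R/maanova per the design text, was not rerun.

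The members, the gene lists (4 of the pathway, 8 of cell types) and the choice of tests were made with earlier results of these data known. Named in full are Mki67, Top2a, Cdk1, Ccnb1, Ccnd1 and Pcna, the brightest and the most variable member of each functional group, up to 3 members per direction with the smallest p in each comparison, Cdkn1a and up to 3 genes per pathway list with the smallest F test p, and the 8 genes most like the mitotic mean. Samples with the same replicate number did not deviate together: 18 of 90 pairs correlated above 0.1. Alternatives tried were a filter on dim probe sets, another variance model, array weights, a replicate block, renormalization, centring, no moderation, the mean of a gene's probe sets, only the groups compared, other dose scores and leaving out animals.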

Additional observations from a re-analysis of the deposited data

Results flagged for a closer look

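Of 288 series of 6 animals (each measured gene, the mean of the mitotic genes and that of the S phase genes, in each of the 6 groups), 15 held an animal whose gap to its nearest neighbour was large against the range of its group, and chance gives about 1 in 20 such series. Values are log2 levels.

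Replicate 5 at 94.3 mg/kg was low for 3 mitotic genes: Ccnb1 lay at 3.89 with the other 5 animals between 4.42 and 4.70, Cdc20 at 5.17 with the others between 5.53 and 5.73, and Nusap1 at 5.26 with the others between 5.53 and 5.63. Replicate 3 at 943 mg/kg was likewise low for Kif20a (4.38, others 5.05 to 5.36), Prc1 (4.74, others 5.14 to 5.34) and Nusap1 (5.34, others 5.59 to 5.70). Replicate 4 at 9.4 mg/kg was high for Cdc20, at 6.70 with the others between 5.18 and 5.74.

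At 0.94 mg/kg, Ccnb1 was low in replicate 3 (4.02, others 4.35 to 4.48), Top2a was low in replicate 6 (4.02, others 4.40 to 4.55), and Gmnn was high in replicate 6 (4.40, others 3.79 to 4.01). Racgap1 was low in vehicle replicate 1, at 3.29 with the others between 3.95 and 4.17. Ttk was low in replicate 6 at 9.4 mg/kg (2.46, others 2.79 to 2.97), and Ccne2 in replicate 3 at 0.1 mg/kg (2.38, others 2.68 to 2.83). The probe sets of Ccnb1, Top2a, Gmnn, Racgap1, Ttk and Ccne2 are all dim. Among S phase genes, Mcm7 was low in replicate 2 at 943 mg/kg (6.59, others 6.91 to 6.99) and Pcna in replicate 1 at 94.3 mg/kg (8.58, others 8.69 to 8.74).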

How the results depend on the processing

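The count of members past the threshold stayed at 0 in all 224 alternatives, and 358 median differences kept within the spread between animals. The count of probe sets past it moved in 7 of 224: the trend gave 1 after quantile normalization again and 1 with the mean of a gene's probe sets. Leaving out 1 animal gave 0 to 1 for the trend (1 without vehicle replicate 4 or 9.4 mg/kg replicate 3), 0 to 1 at 9.4 mg/kg (1 without its replicate 3), 0 to 11 at 94.3 mg/kg and 0 to 18 between 943 and 94.3 mg/kg, the last both without replicate 1 at 94.3 mg/kg; the cause was not tested. Of the single members, 1045 values kept their sign and 9 did not. Leaving out 1 animal moved 26 of 36 named differences by over 1.5 times. With the mean of a gene's probe sets, Gmnn at 0.94 mg/kg was 0.0016, Ccne2 and Mad2l1 at 9.4 mg/kg were 0.051 and 0.029, and Kif11 at 94.3 mg/kg was 0.00056. The trend of Ccnd1 was 0.023 without the highest dose group. Without 1 animal, Tyms at 9.4 mg/kg ran from -0.090 to 0.017, Mad2l1 there from -0.13 to 0.024, and Kif11 at 94.3 mg/kg from -0.15 to 0.0046, or 0.0042 without replicate 3 of that dose. The r of Cdk1 and Mcm3 ran from 0.26 (without 9.4 mg/kg replicate 4) to 0.47 and was 0.38 with array medians centred, and it lost the threshold in 17 alternatives. The r of Mcm3 and Mcm6 ran from 0.21 to 0.38, was 0.38 with group means not removed, and passed in 3.

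With the replicate number as a block, 0 probe sets passed in each of the 8 comparisons, with a smallest adjusted p of 0.114 between 943 and 94.3 mg/kg in limma. Numbers did not pair the animals: the median correlation of deviations was 0.0026 for equal numbers and -0.0094 for others, and 8 of 36 arrays correlated best with their own number. The 22 dim members lie below the lowest array median; their signal over background was not measured.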

Other observations

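Genes that varied against the mitotic genes between livers were listed after their values were seen. The lowest correlation with the mitotic mean over the 36 animals, after group means were removed, was that of Nr1i3 (r = -0.67), the nuclear receptor CAR, which regulates drug metabolism in hepatocytes and ranged from 6.23 to 8.21 on the log2 scale. Scamp1, a carrier membrane protein, had r of -0.67 over a narrower range of 7.89 to 8.19. These 2 genes are the extremes of 14171 genes, and the values are a description with no test.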
